A study of Arabidopsis thaliana with 4 samples.

Results

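The subject is 5 Arabidopsis thaliana genes grouped as immune receptor and leucine-rich repeat (LRR) genes, namely CW9 (locus AT1G59620), AT3G44630, AT3G43740, AT5G45480 and AT5G45500. They were taken from probe sets annotated to a single one of these genes, and were chosen by the size of their measured difference between the genotypes. Each gene has 1 probe set, so 5 of the 22746 probe sets tested are described here, and by gene 5 of 13356 with a probe set of their own. Since the genotype difference chose these genes, their own differences are given below as a description and without a test.

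RNA came from whole seedlings of accession Col-0, aged 10 days, grown untreated on 1/2MS medium under white light. The wild type was compared with OsRR6ox, a transgenic line over-expressing OsRR6, a rice type-A response regulator of cytokinin signalling, with 2 biological replicates per genotype, each hybridised to 1 Affymetrix GeneChip. The promoter that drives the transgene and the number of independent lines behind the OsRR6ox seedlings are not stated in the labels. Values are log2 expression as deposited. In whole seedlings, fewer cells of a type and less RNA per cell cannot be told apart.

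Plants recognise many pathogens inside the cell with NBS-LRR proteins, which join a nucleotide-binding site (NBS), the switch of the receptor, to LRRs that help to sense the pathogen or its effects. The class splits by its front end into receptors with a Toll/interleukin-1 receptor (TIR) domain and receptors with a coiled coil. The genes often lie in clusters of near copies, vary between accessions, and are kept at low levels in healthy tissue, since excess receptor can trigger defence and stunt growth. LRRs also build proteins at the cell surface and many proteins with no known part in immunity.

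AT3G44630 and CW9 are the NBS-LRR members, the first of the TIR class. AT3G43740 encodes a small LRR protein, and AT5G45500 a protein with a ribonuclease inhibitor-like fold, which is itself built of LRRs. AT5G45480 is known as a membrane protein with a domain of unknown function, DUF594, so the group name describes its near neighbour AT5G45500 better than AT5G45480 itself. The tables used here pair probe sets with gene names and hold no protein descriptions, and these classes are therefore background. A receptor gene read by an array can also pick up a near-identical copy, and how far the 5 probe sets do so was not tested.

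Of the 5 genes, 4 had higher values in OsRR6ox and 1, CW9, had lower values. Array background was taken as the 25th percentile of the probe sets on each array, which lay at 4.49 and 4.52 (wild type) and at 4.45 and 4.41 (OsRR6ox). Both wild type arrays lay at or below it for 3 of the genes, AT3G44630, AT3G43740 and AT5G45500, and both OsRR6ox arrays lay above it. That pattern was met by 190 of all 22746 probe sets.

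**Figure D1:**
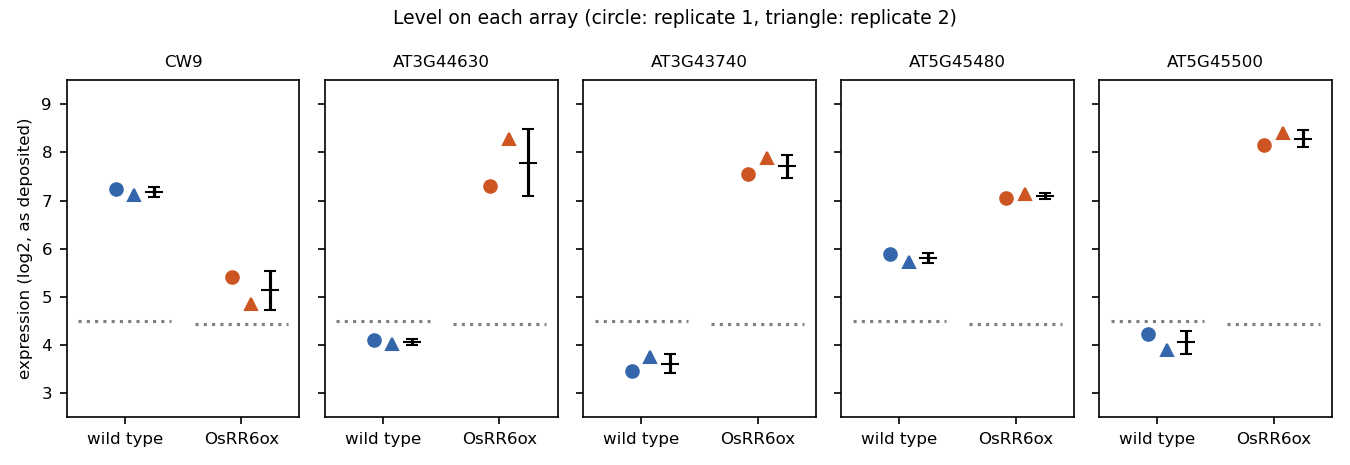
Log2 expression of the 5 genes on each array, wild type in blue and OsRR6ox in orange, with circles for replicate 1 and triangles for replicate 2. Black bars give the mean and SD (n = 2), and dotted lines the mean 25th percentile of the 2 arrays of each genotype. CW9 lies lower in OsRR6ox, the other 4 genes lie higher, and 3 of them start below the dotted line in the wild type.

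The TIR class receptor gene AT3G44630 read 4.11 and 4.02 (wild type) and 7.30 and 8.28 (OsRR6ox). The genotypes did not overlap, and the gap between the nearest arrays was 3.19, while the OsRR6ox replicates differed from each other by 0.98. Means were 4.06 ± 0.06 in the wild type and 7.79 ± 0.69 in OsRR6ox (SD, n = 2 each), a difference of 3.72 on the log2 scale. As the wild type lay at array background, this is a bound, and set against background the level in OsRR6ox was at least 9.72-fold higher.

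CW9, the other NBS-LRR gene, ran the opposite way. It read 7.25 and 7.10 (wild type) and 5.42 and 4.85 (OsRR6ox), so both OsRR6ox arrays remained above array background. Means were 7.18 ± 0.10 and 5.13 ± 0.41 (SD, n = 2 each), a difference of -2.04, with the wild type 4.12-fold brighter. The nearest arrays of the 2 genotypes stood 1.68 apart, against a replicate gap of 0.57 in OsRR6ox.

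The LRR gene AT3G43740 read 3.47 and 3.76 (wild type) and 7.54 and 7.88 (OsRR6ox). The wild type lay at background, and the OsRR6ox replicates were 0.34 apart, farther than those of 82.2% of probe sets. Between the nearest arrays of the 2 genotypes the gap was 3.78. Means were 3.62 ± 0.20 and 7.71 ± 0.24 (SD, n = 2 each), a difference of 4.097, and against background the OsRR6ox level was at least 9.24-fold higher.

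AT5G45500, with the LRR-type fold, had the widest measured gap between the genotypes. Its wild type lay at background, as did that of AT3G44630 and AT3G43740, so the order of these 3 genes is not known. AT5G45500 read 4.23 and 3.89 (wild type) and 8.16 and 8.41 (OsRR6ox), with 3.93 between the nearest arrays. Means were 4.06 ± 0.24 and 8.28 ± 0.18 (SD, n = 2 each), a difference of 4.22, and the OsRR6ox level was at least 13.7-fold higher than background.

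AT5G45480, the DUF594 gene, differed least. Unlike AT5G45500, it was above array background in both genotypes, reading 5.88 and 5.73 (wild type) and 7.05 and 7.13 (OsRR6ox). Means were 5.81 ± 0.11 and 7.09 ± 0.06 (SD, n = 2 each), a difference of 1.29 or 2.44-fold. Its replicates were tight, with gaps of 0.15 and 0.08, against 1.17 between the nearest arrays of the 2 genotypes.

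In all 5 genes the arrays of the genotypes were fully separated, against 46.1% of probe sets in the whole table. Of all probe sets 18.1% were separated upwards in OsRR6ox and 28.0% downwards. By size of the difference in either direction, AT5G45500, AT3G43740 and AT3G44630 ranked 11, 12 and 18 among the 22746 probe sets. The wild type values of these 3 lay at background, so their order among themselves is not known, and set against background the differences were 3.78, 3.21 and 3.28. CW9 ranked 127 and AT5G45480 ranked 379. These ranks describe how the genes were selected and carry no test.

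**Figure D2:**
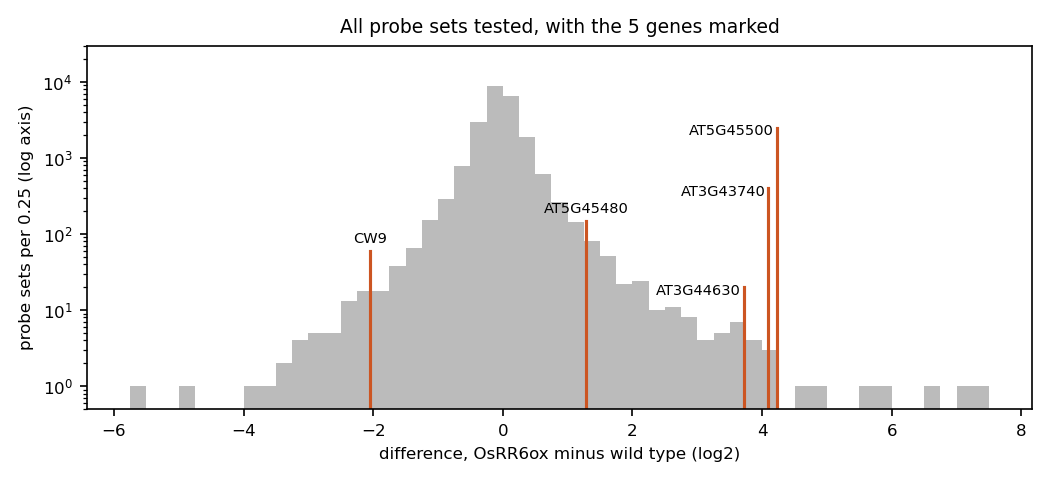
Number of probe sets (log axis) by difference between OsRR6ox and wild type means on the log2 scale, in bins of 0.25, with the 5 genes marked by vertical lines whose height has no meaning. AT3G44630, AT3G43740 and AT5G45500 lie at 3.72 to 4.22 in the thin upper tail, AT5G45480 at 1.29 and CW9 at -2.04.

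Spread between replicates, which did not enter the selection directly, differed among the genes. The OsRR6ox replicates of AT3G44630 were 0.98 apart, farther than 98.9% of all probe sets, and replicate 2 was the higher. Those of CW9 were 0.57 apart, farther than 94.9%, and there replicate 1 was the higher. AT3G43740 and AT5G45500 had OsRR6ox gaps of 0.34 and 0.25, wider than 82.2% and 70.9% of probe sets, and AT5G45480 of 0.08, wider than 28.9%. In the wild type the 5 gaps ran from 0.09 for AT3G44630 to 0.33 for AT5G45500, where the median over all probe sets was 0.18. The OsRR6ox values of AT3G44630 and CW9 thus had the widest replicate spread of the 10 groups. This does not rank how well the levels are known, since the wild type values of AT3G44630, AT3G43740 and AT5G45500 lay at background.

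The profiles over the 4 arrays, each taken relative to the mean of its own gene, were compared by Euclidean distance. AT3G43740 and AT5G45500 were the closest pair at 0.46, followed by AT3G43740 with AT3G44630 at 0.65 and AT3G44630 with AT5G45500 at 0.74. The wild type values of these 3 genes lay at background, so the order of their distances is not known. AT5G45480 stood 2.94 from AT5G45500, although both lie in the same stretch of the genome, because its difference was smaller. Outside the group, AT2G14460 was among the 3 nearest genes for AT3G44630, AT3G43740 and AT5G45500, at distances of 0.57, 0.61 and 0.71. It read 3.56 and 3.50 (wild type) and 6.96 and 7.18 (OsRR6ox).

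For AT3G44630 the second nearest gene was AT4G16870, a copia-type retroelement, at 0.67, with values of 4.84 and 4.85 (wild type) and of 7.38 and 8.43 (OsRR6ox). Both shared a higher OsRR6ox replicate 2. AT5G05750 was the third at 0.72. AT3G43740 was also close to AT1G65370 at 0.51 and AT4G15390 at 0.69, and AT5G45500 to AT2G43535 at 0.78 and AT1G76960 at 0.83. The nearest to CW9 were AT5G51470, a GH3-like gene, at 0.23, AT3G16700 at 0.28 and AT1G12080 at 0.38. AT5G45480 was nearest to AT1G29270 at 0.07, FHL, which acts in nuclear import of phytochrome A, at 0.11 and AT2G19790 at 0.12. With 4 arrays in 2 groups, likeness mainly reflects the size of the genotype difference.

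AT5G45480 and AT5G45500 are separated by 1 protein-coding gene in the order of the TAIR10.1 reference, AT5G45490, whose probe set is shared with another gene and was not used. AT3G43740 and AT3G44630 lie on the same chromosome with 84 protein-coding genes between them, and CW9 lies on chromosome 1. To see whether the differences extended to genes beside them, all genes up to 5 places away on either side were examined. Of 41 such neighbours 19 were measured under a single gene name, and these were tested in the limma fit over all probe sets, in which 0.813% of probe sets rose and 0.488% fell (Benjamini-Hochberg adjusted p under 0.05).

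Of the 19 neighbours 1 rose and 0 fell, and 5 had an unadjusted p under 0.05 (limma), as did 15.0% of all probe sets. Their median difference was 0.15, against -0.04 over all probe sets. The gene that rose was MOB1-like, a relative of the Mob1 kinase regulators of growth known from yeast and animals, which lies 5 places from AT5G45500. It read 6.32 and 6.07 (wild type) and 8.22 and 8.21 (OsRR6ox), so the groups were far apart. The difference was 2.03 ± 0.14 (SE, n = 2 per group, limma adjusted p = 0.00885), and without OsRR6ox replicate 1 or 2 the adjusted p was 0.0872 or 0.0887 with differences of 2.02 and 2.03.

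The 3 measured genes between AT5G45500 and MOB1-like did not pass the test. AT5G45510, the next gene after AT5G45500, read 8.68 and 8.89 (wild type) and 8.75 and 9.02 (OsRR6ox). Its difference was 0.10, with a 95% interval from -0.30 to 0.50. The DUF594 genes AT5G45530 and AT5G45540, relatives of AT5G45480, were at array background on all 4 arrays, with differences of -0.23 and 0.17.

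The measured neighbours of the other 3 genes had smaller differences. Beside AT3G44630, all 5 measured genes lay on one side, and differed by 0.02 for AT3G44580, 0.33 for AT3G44590, 0.15 for CYP71, a cyclophilin that binds chromatin, 0.52 for AT3G44610 and 0.15 for AT3G44620. AT3G44620, the adjacent gene, had a 95% interval from -0.35 to 0.64 in limma, far from the 3.72 of AT3G44630. Beside AT3G43740, the adjacent AT3G43750 was at background on all arrays (-0.08), the glutathione transferase gene GSTU27 differed by -0.14, and AT3G43670 by -0.93. AT3G43670 varied between the wild type arrays, at 7.14 and 5.81.

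Around CW9, 7 neighbours were measured. CW14 differed by 0.58, AT1G59660 by 0.49, BPEp, a bHLH factor of petal growth, by 0.30 and ZCW7 by 0.25. On the lower side, ZCF37 differed by -0.39, AT1G59630 by -0.24 and GSTU15 by -0.07, the last 2 at background on all arrays. None passed the limma test, and the widest, CW14, differed in the direction opposite to CW9. Genes beyond 5 places were not examined as neighbours. Among them is AT1G59780, a receptor gene with a locus code near that of CW9, which differed by -1.297 and is described below.

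**Figure D3:**
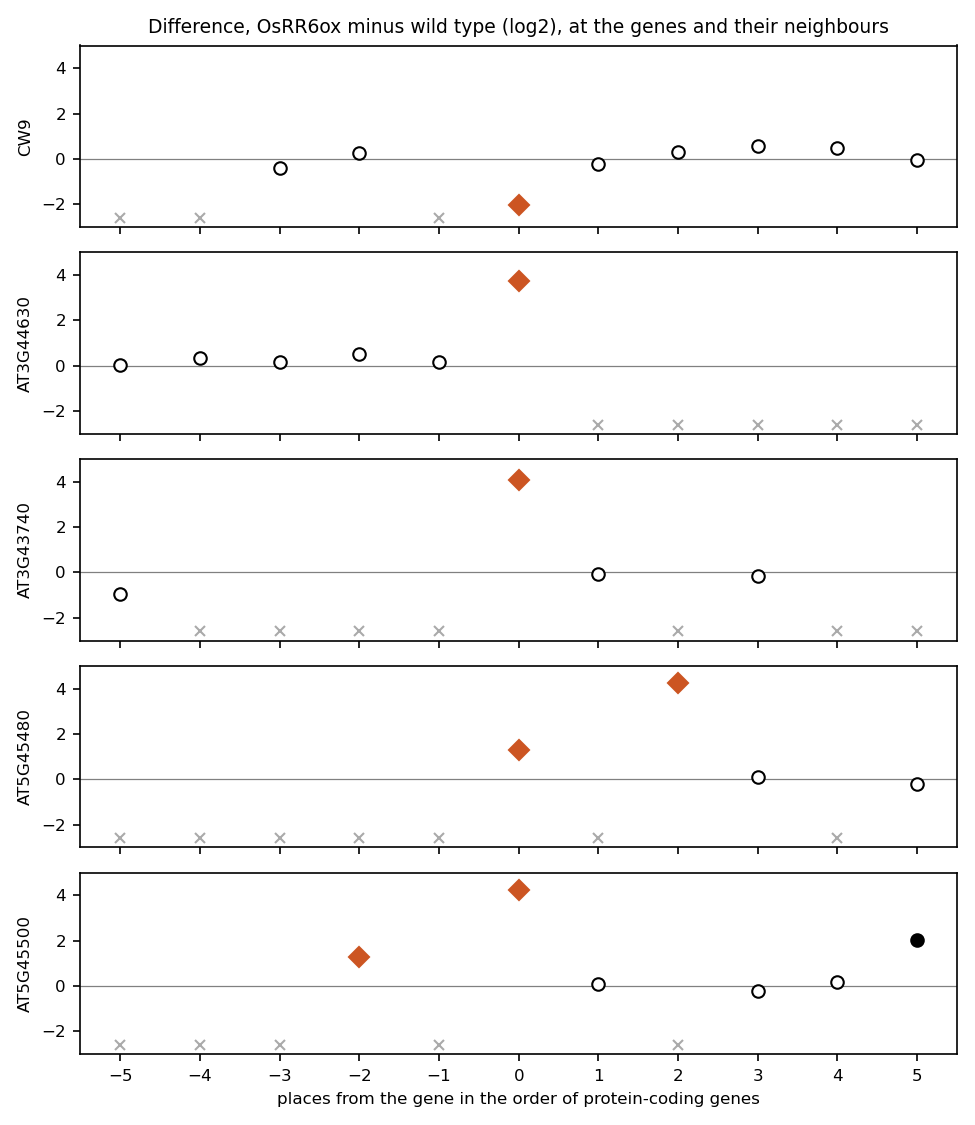
Difference between OsRR6ox and wild type (log2) at each of the 5 genes (orange diamonds, position 0) and at genes up to 5 places away. Circles are measured neighbours, filled where the adjusted p was under 0.05, and grey crosses at the foot mark neighbours not measured under a single gene name. Apart from AT5G45480 and AT5G45500 themselves, MOB1-like at 2.03 is the one neighbour that passed.

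The 2 NBS-LRR genes were next set beside other receptors of their class. A list of 48 well-known receptors besides AT3G44630 and CW9 held 13 genes measured under a single gene name. Of these 1 rose and 0 fell, where 0.813% and 0.488% of all probe sets did so, 5 had an unadjusted p under 0.05 (limma, 15.0% over all probe sets), and the median difference was -0.07, to which spike-in centring adds 0.53 as to every other probe set. The gene that rose was AT4G16900, a TIR class gene of the cluster that holds RPP4, RPP5 and SNC1, receptors of downy mildew recognition and of autoimmunity. It read 3.55 and 3.72 (wild type, at background) and 4.79 and 4.92 (OsRR6ox).

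The measured difference of AT4G16900 was 1.22 ± 0.14 (SE, n = 2 per group, limma adjusted p = 0.0316), and against background the OsRR6ox level was at least 1.27-fold higher. The adjusted p rose to 0.0589 without wild type replicate 1, 0.158 without OsRR6ox replicate 1 and 0.208 without OsRR6ox replicate 2, with differences of 1.13, 1.28 and 1.153. Its cluster neighbour AT4G16920, named here after the values had been seen, was at background on all arrays, with a difference of 0.04.

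Among list members that did not pass, AT3G44400, of the same cluster as the downy mildew receptor RPP1 and AT3G44630, read 3.32 and 3.43 (wild type) and 4.05 and 4.14 (OsRR6ox). Its difference was 0.72, but all 4 values lay at background. AT1G17600 differed by -0.47, CSA1, a TIR class gene known for shade responses, by -0.44 and LOV1, the gene of victorin sensitivity, by -0.42. Of the 13 genes 6 were at background on all 4 arrays.

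A wider family list by locus code was drawn up after the values had been seen. It held 164 genes besides AT3G44630 and CW9, of which 100 were measured, on 101 probe sets. Of the 100 genes 4 rose and 1 fell, and 31 had an unadjusted p under 0.05 (limma, 15.0% over all probe sets). The median difference of the 101 probe sets was -0.09 as deposited, and 40 of them were at background on all arrays. Over all probe sets, 0.813% rose and 0.488% fell. After spike-in centring 3013 of all 22746 probe sets passed. Of the 101 in the list 22 did so, 4 of the 5 calls among them. The 4 that rose were of the TIR class, of which 75 genes were measured, and the 1 that fell was of the other classes, of which 25 were measured. In the TIR class as deposited, 28 of the 75 differences were above 0 and 47 below, with a median of -0.08. No test compared the classes.

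AT2G14080 read 4.82 and 5.25 (wild type) and 7.08 and 7.27 (OsRR6ox), a rise of 2.13 (limma adjusted p = 0.0179). AT5G36930 rose by 1.62 from background, to at least 2.03-fold above it (limma adjusted p = 0.0181), and AT1G69550 by 1.02, with OsRR6ox at 4.48 and 4.44, near background (limma adjusted p = 0.0365). Set against the wild type background, the OsRR6ox level of AT1G69550 was 0.97-fold, so no rise above background was shown for it. AT1G59780 fell from 5.44 and 5.16 to 3.97 and 4.04, at background in OsRR6ox, so the wild type was at least 1.83-fold higher (measured difference -1.297, limma adjusted p = 0.0335), but did not pass after spike-in centring (adjusted p = 0.0595). AT5G40910 showed a larger difference of 2.49 than these but read 5.63 and 7.14 on the OsRR6ox arrays and did not pass (limma adjusted p = 0.106). AT1G72890 did not pass either, at 6.35 and 5.76 (wild type) and 7.97 and 7.47 (OsRR6ox), a difference of 1.67 (limma adjusted p = 0.0707). Nor did AT1G66090, with the wild type at background and OsRR6ox at 5.41 and 6.29 (difference 1.57, limma adjusted p = 0.105). In the whole list 38 probe sets had a higher mean in OsRR6ox and 63 a lower mean. Without OsRR6ox replicate 1 or 2, 0 of the 5 calls in the wider list were kept, and without wild type replicate 1 or 2, 2 and 4 were kept.

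**Figure D4:**
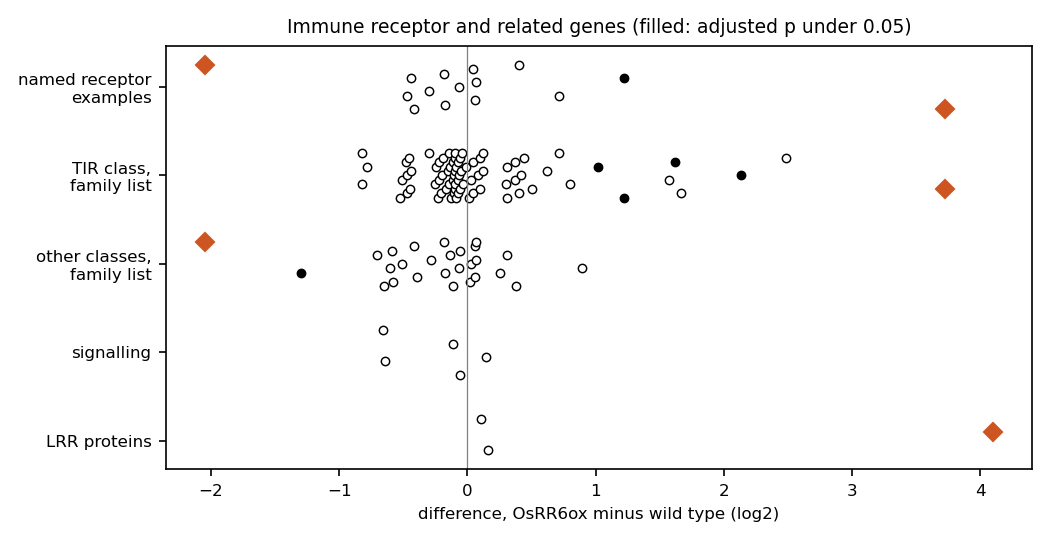
Difference between OsRR6ox and wild type (log2) for measured receptor and related genes, 1 point per probe set, with vertical spread for visibility. Orange diamonds are AT3G44630, CW9 and AT3G43740, and filled circles passed the test. As deposited, receptor genes centre near 0, with the filled circles of the TIR class to the right and that of the other classes at -1.297.

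The LRR and signalling lists held few measured genes. Of 18 LRR genes listed besides AT3G43740, 2 were measured. AT5G21090, an LRR protein gene of the same kind as AT3G43740, was bright in both genotypes, reading 11.89 and 11.56 (wild type) and 12.05 and 11.72 (OsRR6ox). Its difference was 0.16, with a 95% interval from -0.32 to 0.64 (limma). EFR, the surface receptor for bacterial elongation factor Tu, differed by 0.11, with an interval from -0.22 to 0.44. For these 2 genes limma gave 0 calls, and 0 had an unadjusted p under 0.05. Over all probe sets 0.813% rose, 0.488% fell and 15.0% had such a p, so 0 of 2 lies near the background.

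Genes that act with or after the receptors gave 0 calls among 5 measured of 28 listed, and 0 had an unadjusted p under 0.05 (limma). Over all probe sets 0.813% rose, 0.488% fell and 15.0% had such a p, so 0 of 5 lies near the background. The transcription factor gene WRKY53 differed by -0.64 (95% interval -1.32 to 0.03) and the glutaredoxin gene GRX480, which acts with TGA factors, by -0.66 (-1.50 to 0.19). SAG101, a partner of the signalling protein EDS1, differed by 0.14, the cytoplasmic kinase gene BIK1 by -0.11 and the co-chaperone gene SGT1A by -0.06. The intervals of WRKY53 and GRX480 are wide, because both varied between replicates of the same genotype.

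Seedling organs differ in which receptors they express, so markers of root and green tissue are given beside these results. Of 6 root and 6 green tissue genes listed, 4 and 3 were measured. Over all probe sets 0.813% rose and 0.488% fell. Of 4 root genes measured 1 rose, EXPA7, by 1.39 (limma adjusted p = 0.0392, 0.128 without OsRR6ox replicate 1 and 0.200 without OsRR6ox replicate 2), while EXPA18 differed by 1.11, PYK10 by -0.21 and NAI1 by -0.19. Without wild type replicate 2 the EXPA7 adjusted p was 0.0565. Of 3 green tissue genes 1 fell, LHCB4.3, with a difference of -1.41 (limma adjusted p = 0.0257, 0.155 and 0.179 without OsRR6ox replicate 1 and 2), and LHCB4.2 and LHCB4.1 differed by 1.20 and 0.17. Of the 4 root genes 2 had a difference above 0, and of the 3 green tissue genes, all named LHCB4, 2 did. The calls therefore give no single reading of either tissue. None of these 7 markers was at background. Their part in the differences of the 5 genes was not tested.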

How the data were processed

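The authors deposited log2 expression values of 22810 probe sets on 4 arrays, and the labels' protocols give Trizol extraction and biotin labelling by the Affymetrix 3′ IVT method. The submitters' processing notes name R 3.4.0, and no source used here gives the background correction or the normalization. Replicates are labelled biological, with nothing on separate cultures, so p-values cover only the spread between them, which may be technical.

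After 64 array controls were left out, 22746 probe sets were fitted with limma 3.58.1 in R 4.3.3 (lmFit, eBayes, two-sided, Benjamini-Hochberg adjustment over all of them, threshold 0.05), a fit tested on simulated data. Of these 13513 had 1 gene, 503 several and 8730 none. Symbols were matched through gene identifiers to the TAIR10.1 table (13436 matched), which also gave gene order. Where gene descriptions had been planned for the lists, locus codes were used alone. "At least" folds set the brighter mean against the higher of the value and the 25th percentile on each dim array. Named genes were every gene past the threshold and the 4 smallest p in each list, every measured neighbour, and the 3 nearest profiles per gene. The 5 genes and the lists were chosen with earlier results of these data known. The number of arrays limits the precision.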

Additional observations from a re-analysis of the deposited data

How the results depend on the processing

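The 5 genes kept their direction under quantile normalization, spike-in centring, the replicate number as a block and leaving out each array. Leaving out an array gave -2.33 to -1.76 for CW9, 3.23 to 4.21 for AT3G44630, 3.93 to 4.27 for AT3G43740, 1.21 to 1.36 for AT5G45480 and 4.05 to 4.39 for AT5G45500. Centring on 42 spike-in controls added 0.53 to every probe set, moved the median of all of them from -0.04 to 0.49, and gave -1.52, 4.25, 4.62, 1.81 and 4.75 in the same order. There 3013 probe sets passed instead of 296, with 3 receptor genes of the 13 and 6 neighbours, so the signs of small differences and the counts rest on the scaling.

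Same-numbered samples deviated together with a correlation of 0.26, but the labels do not say that a number marks a shared batch, so the numbers were not taken to pair the samples. With the replicate block 105 probe sets passed, with 0 receptor genes, 1 neighbour and 2 probe sets of the wider family list, 1 of them among its 5 calls. AT3G44430 (limma adjusted p = 0.0632), AT4G16900 and AT4G16870 (0.0654 each) did not pass there. An intensity trend with a robust prior gave 441 calls and 2 receptor genes, and leaving out dim probe sets gave 345 and 0, as 8 of the 13 receptors were then not tested. Leaving out an array gave 45 to 465 probe sets (51 and 45 without OsRR6ox replicate 1 and 2, 465 without wild type replicate 2), 0 to 1 receptor genes and 0 to 1 neighbours. The wider family list gave 5 calls, 22 after spike-in centring, and 3, 4, 1 and 0 without wild type replicate 1 and 2 and OsRR6ox replicate 1 and 2. Quantile normalization changed no count for the list of 13 receptors or the neighbours, and the LRR and signalling lists had 0 calls in all of these fits. The cause of these changes was not tested otherwise.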

Other observations

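AT3G44630 and AT4G16900 each lie in a stretch of receptor genes, and the other measured genes of both stretches were looked at after their values had been seen. In the stretch from AT3G44400 to AT3G44680, which holds RPP1, 11 genes were measured besides AT3G44630, and 1 rose, where 0.813% of all probe sets rose. AT3G44430 read 4.32 and 4.63 (wild type) and 6.92 and 6.55 (OsRR6ox), a rise of 2.26 (limma adjusted p = 0.0157, 0.0920 and 0.0655 without OsRR6ox replicate 1 and 2). The 11 genes had 12 probe sets, with a median difference of 0.15.

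In the stretch from RPP4 to RLM3, 8 genes were measured, AT4G16900 included, and 2 rose, where 0.813% of all probe sets rose. Both genes that rose had already been picked out above by their values, so this count is no test of the stretch. They were AT4G16900 by 1.22 and the retroelement AT4G16870, which lies beside RPP4, by 3.06 (limma adjusted p = 0.0326, 0.0528 without wild type replicate 1). Between and beyond them, AT4G16880 differed by -0.37, AT4G16970 by -0.41, and AT4G16910, AT4G16920 and AT4G16930 were at array background on all 4 arrays. The probe sets of RPP1, RPP4, RPP5 and SNC1 were not analysed here under a single gene name.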
